A study of Mus musculus with 768 samples.

Results

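The nuclear genes for the subunits of oxidative phosphorylation were followed in single cells of the mouse thymus. Members were all genes of the count table whose symbols begin with Nduf followed by a, b, c, s or v (assembly factors named Ndufaf left out), are Sdha to Sdhd, or begin with Uqcr, Cox4 to Cox8 or Atp5. This gave 85 of the 23127 genes kept: 38 for complex I, 4 for complex II, 8 for complex III, 18 for complex IV and 17 for complex V. Complexes were assigned by the start of the symbol. Ndufa4, whose product is counted today with complex IV, and its relative Ndufa4l2 are therefore listed and summed under complex I. Levels are CPM, the counts of a gene scaled to the total of its library. With a mean of at least 10 CPM over the 8 libraries 77 members are called measured, as were 8097 of all genes.

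The study sorted 768 thymocytes that lacked CD4, CD8 and lineage markers from C57BL/6 mice aged 6 to 8 weeks, to compare deletions of Tcf7 that act at different stages. The Tcf7 product, TCF1, is a DNA-binding protein that progenitors need to become T cells. There were 4 genotypes. Beside wild type (WT) mice there were Tcf7-/- mice, in which every cell carries the knockout from the germline. In Tcf7fl/fl mice deletion starts in blood stem and progenitor cells where they carry Vav-cre, and in cells already entering the T lineage where they carry Lck-cre, and these are called by the name of the Cre. The DN1 gate took CD25- CD44+ cells and the DN2-3 gate took CD25+ cells. Each genotype and gate filled 1 plate of 96 cells, except that Lck-cre filled 2 DN2-3 plates and no DN1 plate. No animal is named, so each plate is 1 library, no test between genotypes was made and no p-value is given.

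The 2 Lck-cre plates share genotype and gate, and their difference is the yardstick for all other differences, although nothing says that they came from different mice. They are also alike in depth, at 6112207 and 5841167 counts. Their difference may therefore be too small a yardstick for shallower libraries or for the DN1 gate. The 675 cells kept held 1547512 to 8371808 counts per library, fewest in Vav-cre DN1 (58 cells, median 19293 counts per cell) and most in Tcf7-/- DN2-3 (93 cells, median 70003). Tcf7 itself stood at 862 CPM in WT DN2-3 and at 122 CPM in Tcf7-/- DN2-3. In the libraries labelled Vav-cre DN2-3 (964 CPM) and Lck-cre DN2-3 (762 and 658 CPM) it was not low, and counts per gene do not show whether a part of the gene is missing, so these labels are unchecked and the genotype names below stand for the labels. In DN1, Tcf7 stood at 134 CPM in WT, 98.6 CPM in Tcf7-/- and 368 CPM in the library labelled Vav-cre. A Tcf7 count was present in 49 of 86 WT DN1 cells, 81 of 96 Tcf7-/- DN1 cells and 66 of 93 Tcf7-/- DN2-3 cells. Transcript was thus still counted under the Tcf7-/- label, and in DN1 its level does not check that label. The gates fitted their markers in part: 8 DN3 genes summed to 2814 to 4206 CPM in the DN2-3 libraries and to 76.6 to 549.6 CPM in the DN1 libraries. In DN1, 81 of 86 WT cells, 64 of 96 Tcf7-/- cells and 13 of 58 Vav-cre cells held at least 4 of 12 natural killer (NK) genes at 2 or more counts. The Tcf7-/- entries carry another molecule label and another build entry than the rest, and for them genotype and a possible batch cannot be told apart. All 8 libraries use the same 96 barcode numbers, so a barcode names a cell only within its plate.

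Oxidative phosphorylation is the chain of enzymes in the inner mitochondrial membrane that turns the electrons of nutrients into ATP. Complex I takes electrons from NADH and complex II takes them from succinate, complex III passes them to cytochrome c, complex IV hands them to oxygen, and complex V is the ATP synthase that uses the resulting proton gradient. Complexes I, III, IV and V are built from nuclear and mitochondrial genes together, and complex II from nuclear genes alone. Of the genes kept, 0 had a symbol starting with mt-, so every level below concerns the nuclear share. Early thymocytes at the CD25+ stages include cells that divide fast after rearranging a T-cell receptor gene.

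Summed over all 85 members, the DN1 libraries lay close together and the DN2-3 libraries lay above them. The sum was 29985 CPM in WT DN1, 29230 CPM in Tcf7-/- DN1 and 30017 CPM in Vav-cre DN1, a ratio of 1.03 between the highest and the lowest. It was 33319 CPM in WT DN2-3, 45372 CPM in Tcf7-/- DN2-3, 35841 CPM in Vav-cre DN2-3, and 37567 and 37965 CPM on Lck-cre plates 1 and 2. No DN1 library overlapped the DN2-3 range, and Tcf7-/- DN2-3 stood apart from the other 4 DN2-3 libraries. The separation of the gates ended under TMM scaling (a normalisation that sets aside the most shifted genes), with a highest DN1 sum of 31654 CPM against 30744 CPM in WT DN2-3. It also ended without cells with NK genes, where the highest DN1 sum was 37688 CPM, from 5 WT cells, against 33319 CPM. Taken cell by cell, the median was 27536, 30339 and 27761 CPM in the DN1 libraries and 30227, 43062, 34218, 34010 and 34643 CPM in the DN2-3 libraries, so by this measure Tcf7-/- DN1 lay above WT DN2-3. In summed counts, more cells of a high type and more RNA per cell cannot be told apart.

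**Figure D1:**
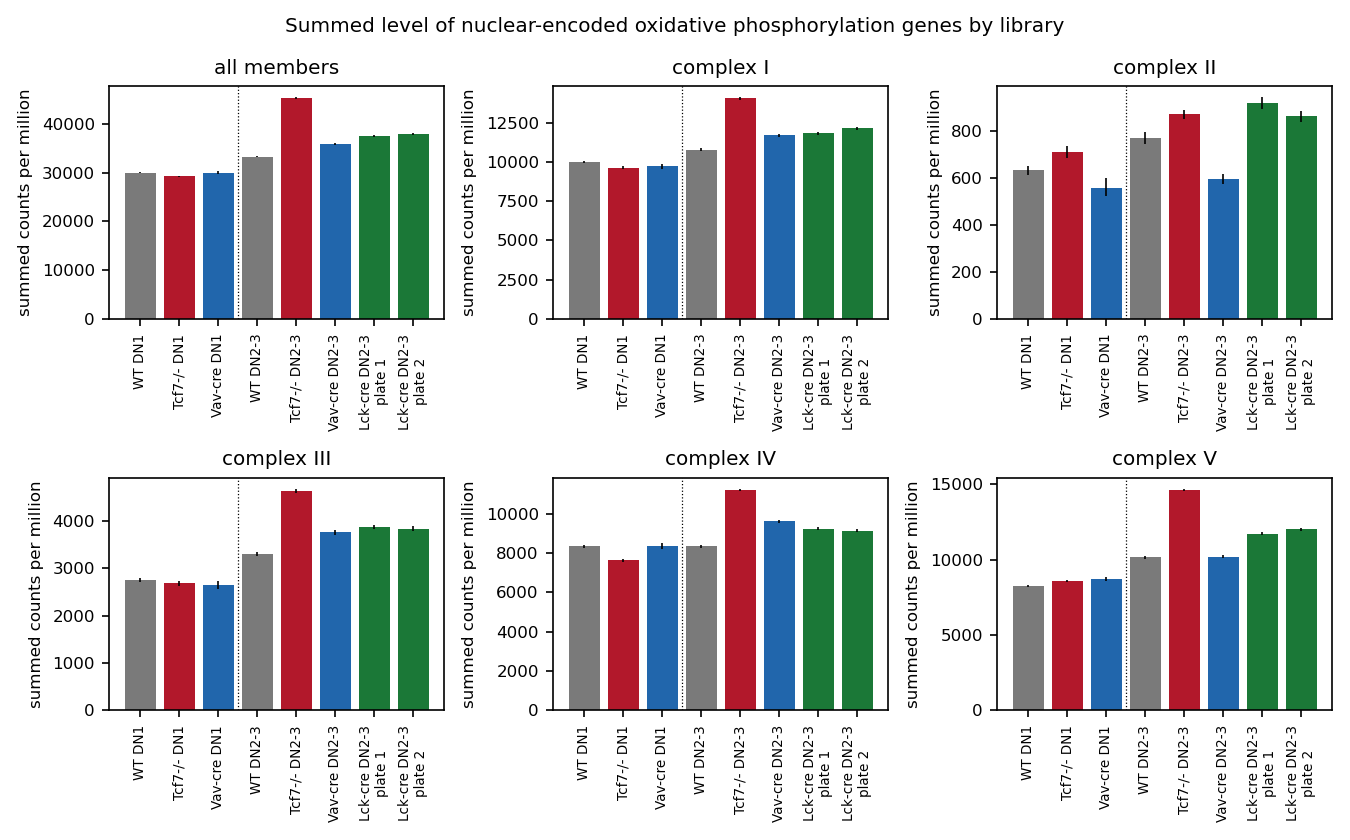
Summed level in CPM (vertical axes, from 0) of all members and of each respiratory complex in the 8 libraries (bars), with exact 95% Poisson intervals as error bars and a dotted line between the gates. The all-member bar of Tcf7-/- DN2-3 reaches 45372 CPM, and the 3 DN1 bars lie between 29230 and 30017 CPM.

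From here, values in a series of 8 are given in the order WT, Tcf7-/- and Vav-cre for DN1, then WT, Tcf7-/-, Vav-cre, Lck-cre plate 1 and Lck-cre plate 2 for DN2-3. Counts carry no term for gene length, so each gene or complex is compared with itself across libraries only. Complex I summed to 9989, 9636, 9734, 10772, 14046, 11699, 11809 and 12129 CPM, and complex III to 2746, 2685, 2647, 3300, 4636, 3759, 3874 and 3839 CPM. Complex V summed to 8275, 8570, 8725, 10138, 14622, 10183, 11724 and 11998 CPM. In these 3 complexes every DN2-3 library lay above every DN1 library. Complex IV summed to 8344, 7628, 8352, 8341, 11200, 9607, 9243 and 9138 CPM, so that WT DN2-3 lay within the DN1 range. Complex II, the only one that also serves the citric acid cycle, summed to 631, 710, 558, 768, 869, 594, 917 and 860 CPM, and here Vav-cre DN2-3 lay within the DN1 range.

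Among single members, the order of the gates was clearest in complexes III and V. All 5 DN2-3 libraries exceeded all 3 DN1 libraries in 31 of 77 measured members (40.3%), against 13.1% of all measured genes, and the reverse order held for 0 members, against 13.1% of all genes. By complex this was 12 of 37 in complex I, 0 of 4 in complex II, 5 of 8 in complex III, 4 of 12 in complex IV and 10 of 16 in complex V. With cells that held NK genes left out, which leaves 5 WT DN1 cells, the order held for 16 members (20.8%) against 13.7% of all genes.

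Ndufc2, a small membrane subunit of complex I (mm10 chromosome 7, 97400003 to 97407802), showed the widest spread of that complex. It stood at 169, 282, 228, 405, 636, 461, 414 and 426 CPM, a ratio of 3.76 from WT DN1 to Tcf7-/- DN2-3 with no overlap of the gates. Ndufb10, another membrane-arm subunit, was the flattest member, at 316, 309.7, 293, 324, 302, 307, 341 and 296 CPM, a ratio of 1.16. Core subunits of complex I, which carry its electrons, differed among themselves. Ndufv2, which carries an iron-sulfur cluster, had 206, 217, 193, 294, 344, 309, 364 and 320.3 CPM and did not overlap between gates. Ndufs1, the largest core subunit, had 56.9, 39.4, 36.2, 59.3, 51.7, 82.6, 62.8 and 42.1 CPM and did overlap. Ndufv1, which binds NADH, stood highest in Lck-cre plate 1 (140 CPM) and Vav-cre DN1 (139 CPM) and lay between 87 and 112 CPM elsewhere.

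In complex I further core subunits also differed in their order of libraries. Ndufs8, which carries iron-sulfur clusters, had 177, 204, 172, 251, 344, 209, 328 and 299 CPM, with no overlap of the gates. Ndufs3 and Ndufs7 overlapped widely, and for both Tcf7-/- DN2-3 lay above WT DN2-3, at 209.9 against 167 CPM and 373 against 304 CPM. Among accessory subunits, Ndufs6 had 295, 269.8, 243, 362, 591, 401, 408 and 426 CPM and Ndufa12 had 264, 256, 266, 369, 541, 455, 398 and 406 CPM. In both, the gates did not overlap and Tcf7-/- DN2-3 was the highest library. Ndufab1, the mitochondrial acyl carrier protein that is also a subunit, had 177, 220, 163, 298, 439, 264, 361 and 385 CPM. Ndufa7 had 153, 192, 185, 99.5, 189, 192, 136 and 164 CPM, so that WT DN2-3 was its lowest library. The ratios of Ndufa7 against WT DN2-3 in every genotype rest on that 1 low value, and Ndufa7 is among the 8 highest members in all 3 DN2-3 comparisons.

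Complex II did not share the order of the gates in any member. Sdha, the flavoprotein that oxidises succinate, had 124, 178, 158, 159.8, 169, 157, 214 and 220.2 CPM, highest on the Lck-cre plates. The membrane anchor Sdhc had 128, 144, 78.2, 92, 135, 87.2, 96.5 and 91.8 CPM, highest in Tcf7-/- DN1. The other anchor, Sdhd, had 91.7, 154, 96.9, 154, 187, 139, 199 and 147 CPM, highest on Lck-cre plate 1.

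In complex III the 2 core proteins separated the gates. Uqcrc1 (mm10 chromosome 9, 108936633 to 108949623) stood at 156, 201, 104, 285, 298, 325, 391 and 317 CPM. Uqcrc2 stood at 67.3, 75, 49.1, 119, 127, 169, 120.1 and 109.7 CPM. For both, every DN2-3 library lay above every DN1 library and Vav-cre DN1 was the lowest. The iron-sulfur protein Uqcrfs1 overlapped, at 183, 228, 222, 224, 364, 254, 351 and 248 CPM, and Uqcrh, which helps cytochrome c bind, was highest in WT DN1 at 829.6 CPM and lowest in Vav-cre DN1 at 397 CPM. The small subunits Uqcr11 (363, 378, 408, 535, 760.4, 546, 786 and 591 CPM) and Uqcrq (333, 416, 450.4, 521, 848, 601, 516 and 620.4 CPM) did not overlap between gates. Uqcr11 was highest on Lck-cre plate 1 and Uqcrq in Tcf7-/- DN2-3. Cyc1 (cytochrome c1), a subunit of complex III that the symbol rule leaves out of its sums, had 145, 269, 152, 197, 224, 274, 299 and 293 CPM and overlapped between gates. Cycs, the carrier cytochrome c, had 388, 303, 186, 438, 679, 335, 380.1 and 555 CPM, highest in Tcf7-/- DN2-3.

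Complex IV members split in direction between the WT gates, with 6 of 12 measured members higher in DN2-3 (57.9% of all genes). Within Tcf7-/- 12 of 12 were higher in DN2-3 (45.5% of all genes), and within Vav-cre 9 of 12 (46.6% of all genes). Cox4i1, a nuclear subunit, had 1116, 1078, 1149, 1301, 1566, 1236, 1546 and 1460 CPM, and Cox5b had 423, 464, 495, 587, 771, 623, 624 and 676 CPM, both without overlap. Cox8a went the other way in WT, with 1525, 939, 1236, 980.3, 1206, 1009, 1038 and 966 CPM, so that WT DN1 was its highest library. Cox6a1 was also lower in WT DN2-3 (823 CPM) than in WT DN1 (1139 CPM). Cox7c had 727, 734, 771, 1018, 1310, 1257, 961 and 1095 CPM without overlap. Cox6c overlapped, at 795, 1193, 1137, 1052, 1548, 1499, 1292 and 1165 CPM, with WT DN1 lowest. In complex V, the catalytic beta subunit Atp5b had 647, 806, 629, 992, 1569, 1045, 1423 and 1376 CPM and the small membrane subunit Atp5k had 439.8, 568, 571, 698, 1093, 716, 827 and 811 CPM. Both had a ratio of 2.49 from lowest to highest library, and neither overlapped between gates. The alpha subunit Atp5a1, the partner of Atp5b in the catalytic head, had 596, 681, 613, 838, 993, 762, 953 and 808 CPM and did not overlap either. Atp5d, of the central stalk, had 598, 636, 547, 645, 810.5, 542, 827 and 835 CPM, with Vav-cre DN2-3 at the DN1 level. Atp5c1, the gamma subunit that turns inside the head, had 419.8, 533, 626, 691, 942, 601, 792 and 883 CPM and overlapped through Vav-cre DN2-3. Atp5e, the epsilon subunit of the central stalk, did not follow, at 900.2, 730.4, 905, 753, 1125, 592, 641 and 749.7 CPM.

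Between the WT gates alone, the median over members lay close to that over all genes. Of 77 measured members, 52 were higher in WT DN2-3 than in WT DN1, 67.5% against 57.9% of all measured genes, and 15 were at least 1.5-fold higher (19.5%) against 29.6% of all. The median log2 ratio of the members, on the scale log2(CPM + 10), was 0.19 against 0.16 for all genes. Cox8a was the 1 member at least 1.5-fold lower, against 18.6% of all genes. Scaling with TMM factors, which moved the median of all genes by -0.16, left 38 members higher (50.3% of all genes) and 6 at least 1.5-fold lower (23.2% of all genes), so no direction is drawn for the members as a group. The summed ratio was 1.23 (interval 1.21 to 1.24) for complex V and 1.00 for complex IV (0.987 to 1.01). The highest measured members by this ratio were Cox6b2, Ndufc2, Ndufb2, Uqcrc1 and Uqcrc2, and the lowest were Cox8a, Ndufa7, Cox6a1, Sdhc and Ndufa1. Since WT DN1 held NK genes in 81 of 86 cells, the gate and the cell type cannot be told apart there.

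Within Tcf7-/- the gates lay further apart. Members were higher in Tcf7-/- DN2-3 than in Tcf7-/- DN1 in 71 of 77 cases (92.2%) against 45.5% of all measured genes, and 37 were at least 1.5-fold higher (48.1%) against 18.3% of all. At least 2-fold higher were 8 (10.4%), against 7.60% of all genes, and 0 were at least 1.5-fold lower, against 27.3% of all genes. The median log2 ratio was 0.57 against -0.09 for all genes, and 0.61 against 0.28 among genes of at least 200 CPM. The summed ratio was 1.73 for complex III (1.69 to 1.76) and 1.71 for complex V (1.69 to 1.73). Cox7a2 (log2 ratio 1.20), the peripheral stalk subunit Atp5h (1.18) and Ndufc2 (1.15) led, and among members of at least 50 CPM Ndufv1 (-0.09), Sdhc (-0.08) and Sdha (-0.07) were lowest. Within Vav-cre, 56 members were higher in DN2-3 than in DN1, 72.7% against 46.6% of all genes, with a median of 0.27 against -0.08. At least 1.5-fold higher were 23 (29.9%, against 26.3% of all genes) and 3 were at least 1.5-fold lower (31.9% of all genes). TMM scaling moved the median of all genes by 0.13 there and left 66 members higher (51.8% of all genes). Among genes with a mean of at least 200 CPM the order turned, with a median of 0.25 for members against 0.32 for all. The highest there after Cox6b2 were Uqcrc2 (1.60), Uqcrc1 (1.55) and Ndufb9 (1.52), against a Vav-cre DN1 library that holds the fewest counts.

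Of the 5 genotype comparisons, Tcf7-/- DN2-3 against WT DN2-3 had the largest median over the members. Against WT DN2-3, 70 of 77 measured members were higher (90.9%) against 39.6% of all measured genes. At least 1.5-fold higher were 19 members (24.7%) against 9.28% of all genes, and 0 were at least 1.5-fold lower against 23.9% of all genes. No member was 2-fold higher (2.54% of all genes) or 2-fold lower (9.55% of all genes). The median log2 ratio of the members was 0.39 against -0.15 for all genes, while the same median between the Lck-cre plates was 0.02. On plate 2 against plate 1, 43 members were higher (49.5% of all genes), with 0 members at least 1.5-fold higher (10.4% of all genes) and 1, Atp5s, at least 1.5-fold lower (9.62% of all genes). The Atp5s product is counted today as an assembly protein rather than a subunit. All-member sums had a ratio of 1.36 (interval 1.35 to 1.37). Each interval covers counting error only, and amplified reads are not independent molecules.

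Complex V showed the largest ratio and complex II the smallest. Sums in Tcf7-/- DN2-3 over WT DN2-3 had ratios of 1.44 (1.43 to 1.46) for complex V, 1.40 (1.38 to 1.43) for complex III, 1.34 (1.33 to 1.36) for complex IV, 1.30 (1.29 to 1.32) for complex I and 1.13 (1.09 to 1.18) for complex II. Tcf7-/- DN2-3 was the highest of the 8 libraries in 13 of 16 measured complex V members and in 0 of 4 complex II members. Over all members it was the highest in 41 of 77 (53.2%), against 9.83% of all measured genes. The highest log2 ratios belonged to Atp5g3, a gene for the c-ring of the ATP synthase (0.94), Cox7a2 (0.88), Ndufa7 (0.86), Ndufs5 (0.82), the small complex III subunit Uqcr10 (0.80), Atp5h (0.76), Cox6a1 (0.71) and Ndufa11 (0.71).

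Atp5g3 (mm10 chromosome 2, 73908447 to 73911326) stood at 285, 277, 249, 235, 460, 203, 234 and 269 CPM, so 7 libraries shared a narrow range and Tcf7-/- DN2-3 alone lay above it. Atp5h had 813, 690.5, 886, 928, 1581, 1017, 1078 and 1096 CPM, with the same library on top. Uqcr10 had 404, 447, 690.1, 551, 969, 811, 666 and 758 CPM. These members were picked by this ratio, so their distance from WT DN2-3 is a description. Lowest were Cox6b2 (-0.38), Ndufs1 (-0.17), Ndufb4 (-0.16), Cox7a2l (-0.15), Ndufv1 (-0.12) and Ndufb10 (-0.10), all within 1.5-fold of WT DN2-3. Under TMM scaling Ndufs1 and Ndufb4 turned in sign, to 0.04 and 0.07.

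Members are abundant genes, and abundant genes as a whole were shifted in this comparison. At a mean of at least 200 CPM the median over all 848 genes was 0.11 and the median over the 60 members among them was 0.44, with 57 of the 60 higher against 58.5% of all such genes. TMM scaling moved the median of all genes by 0.17, and 75 members were then higher (51.7% of all genes). Among cells of 30000 to 100000 counts, which brings the libraries to a like depth, the median over members was 0.34 against -0.07.

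**Figure D2:**
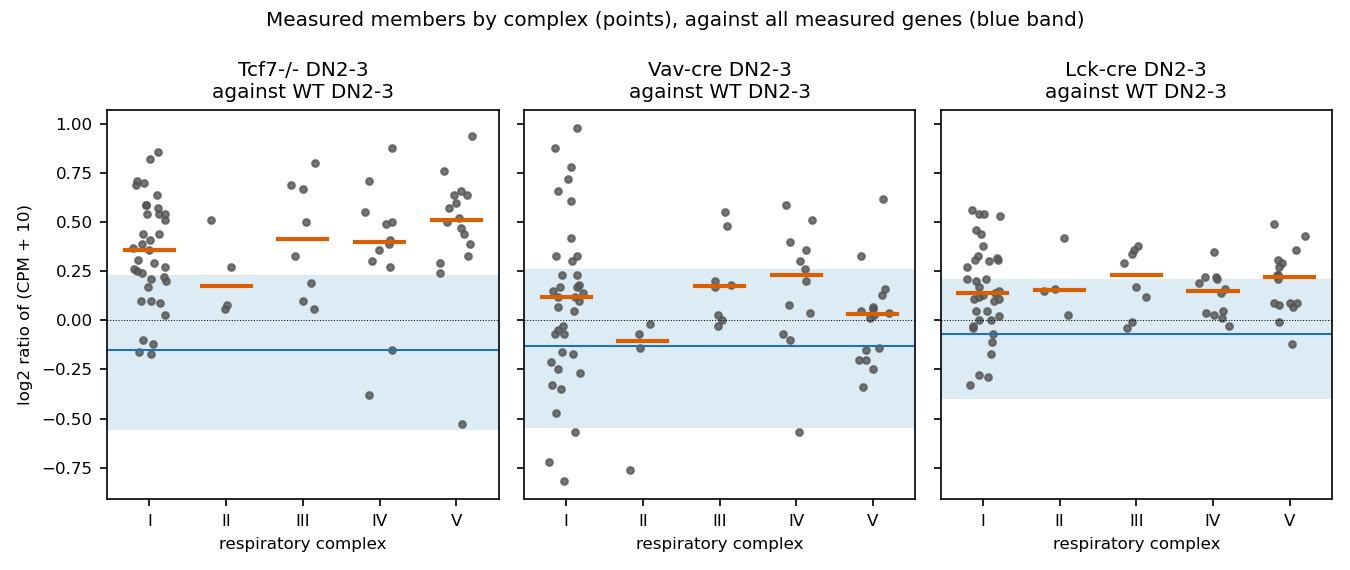
Log2 ratio of (CPM + 10) against WT DN2-3 (vertical axis) for each measured member (grey points) by respiratory complex, in 3 genotype comparisons that share the WT DN2-3 library. Orange bars are medians by complex, and the blue line and band are the median and quartiles of all measured genes. In Tcf7-/- DN2-3 the complex V median is 0.51 and the line for all genes is -0.15.

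In Vav-cre DN2-3 the members shifted less than in Tcf7-/- DN2-3, and the complexes differed. Of 77, 48 were higher than in WT DN2-3 (62.3%, against 40.7% of all genes, and 61 members and 49.4% of all genes under TMM scaling, which moved the median of all genes by 0.13), 8 were at least 1.5-fold higher (11.8% of all genes) and 3 at least 1.5-fold lower (23.4% of all genes). The median was 0.07 against -0.13, and 0.07 against 0.03 among genes of at least 200 CPM. Ndufa6, a peripheral complex I subunit (mm10 chromosome 15, 82350140 to 82354322), led with 351, 423, 421, 439, 569.6, 878, 459 and 645 CPM, and Lck-cre plate 2 was the next library. Summed ratios were 1.09 for complex I, 1.14 for complex III, 1.15 for complex IV and 1 (0.992 to 1.02) for complex V. For complex II the summed ratio was 0.773 (0.735 to 0.813), but its median of -0.10 lay near the -0.13 of all genes. Sdhb had a log2 ratio of -0.76, against -0.02 for Sdha, -0.07 for Sdhc and -0.14 for Sdhd in that complex. Sdhb, its iron-sulfur subunit (mm10 chromosome 4, 140961203 to 140979193), stood at 288, 235, 225, 362, 377, 209.7, 408 and 401 CPM, so that Vav-cre DN2-3 was the lowest library of all while the other DN2-3 libraries shared a range. Ndufb4 (-0.82) and Ndufb2 (-0.72) were the other low members, at 215 and 68 CPM against 386 and 118 CPM in WT DN2-3. This library also held 757 CPM of 5 erythroid genes (18.7 to 76.4 CPM in the other DN2-3 libraries) and 9343 CPM of Gzma (788 to 2633 CPM), and the part of these cells or transcripts in the result was not tested.

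Lck-cre DN2-3 lay between WT and Tcf7-/- in summed level. In the mean of the plates 63 of 77 members were higher than in WT DN2-3, against 42.9% of all measured genes (71 members and 50.9% of all genes under TMM scaling). On both plates 50 of 77 members were higher than in WT DN2-3 (64.9%) against 29.1% of all measured genes, and 7 were lower on both (9.09%) against 41.6%. The median was 0.18 on plate 1 and 0.16 on plate 2, against -0.07 and -0.06 for all genes. Among genes of at least 200 CPM it was 0.16 for members in the mean of the plates and 0.07 for all. No member reached 1.5-fold in the mean of the plates, where 5.47% of all genes did upward and 14.4% downward. Atp5b led complex V (log2 ratio 0.49), and Ndufa11 (0.56), Ndufa7 (0.54), Ndufa9 (0.54) and Ndufs7 (0.53) led complex I. With cells thinned to 10000 counts Ndufa9 gave -0.11. Ndufa1, a small complex I subunit, was lowest (-0.33), at 406, 351, 359, 301, 404, 248, 221 and 254 CPM.

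In the DN1 gate the medians over members lay near 0 for both genotypes. Against WT DN1, 41 of 77 members were higher in Tcf7-/- DN1 (53.2%, against 55.9% of all genes) and 38 in Vav-cre DN1 (49.4%, against 53.2%). The medians were 0.03 against 0.08 in Tcf7-/- and -0.04 against 0.06 in Vav-cre. For Tcf7-/-, 3 members were at least 1.5-fold higher (20.6% of all genes) and 1 at least 1.5-fold lower (13.2%). For Vav-cre, 1 was at least 1.5-fold higher (25.7%) and 5 at least 1.5-fold lower (19.1%). Under TMM scaling 31 members were higher for Tcf7-/- (50.4% of all genes), and 19 for Vav-cre (44.8% of all genes), where that scaling moved the median of all genes by -0.14. The highest in Tcf7-/- DN1 were Cox6b2 (2.18), Ndufc2 (0.70) and Sdhd (0.69) and the lowest were Cox8a (-0.69), Ndufa10 (-0.55) and Ndufa9 (-0.55). Without cells with NK genes, which leaves 5 WT cells, 4 of these turned in sign: Ndufc2 (-0.90), Sdhd (-0.52), Ndufa10 (1.72) and Ndufa9 (0.46). In Vav-cre DN1, Uqcr10 (0.76) was highest and Uqcrh (-1.04) and Ndufs3 (-0.89) were lowest. The makeup differs too: NK genes summed to 7049, 6872 and 4026 CPM and dendritic genes to 1857, 460.2 and 2499 CPM in WT, Tcf7-/- and Vav-cre DN1.

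Several complex IV subunits exist as tissue isoforms from separate genes, and 1 of these had the largest log2 ratio of all measured members between the WT gates. Cox6b2, known as the testis isoform of subunit VIb (mm10 chromosome 7, 4751792 to 4753094), stood at 0.141, 36.1, 5.17, 96.1, 71.4, 61.6, 115 and 86.3 CPM. WT DN1 rests on 1 count, which gives a ratio of 683 to WT DN2-3 with a counting interval of 122 to 27042. Within Vav-cre the ratio between the gates was 11.9 (5.96 to 27.9) and within Tcf7-/- it was 1.98 (1.65 to 2.39). Every DN2-3 library lay above every DN1 library. With counts of 1 to 5 in a cell set to 0, the 3 DN1 libraries had 0, 28.9 and 0 CPM and the DN2-3 libraries 60 to 114 CPM.

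Cells with a Cox6b2 count numbered 1 of 86, 32 of 96 and 5 of 58 in DN1, and 46 of 88, 46 of 93, 23 of 76, 51 of 91 and 37 of 87 in DN2-3. Thinned to 10000 counts per cell, the shares were 0 of 81 (at most 4.45%), 8 of 73 (11%, exact interval 4.85% to 20.5%) and 2 of 49 in DN1 and 35%, 29.2%, 23.1%, 38.8% and 36.5% in DN2-3. Thinning left out 5, 23 and 9 cells in DN1 and 4 to 13 in DN2-3. WT DN1, where NK genes marked 81 of 86 cells, gives the level in cells of another type, at a median of 66572 counts per cell. In Tcf7-/- DN1 the median positive cell held 1 count and 5 cells held more than 5. That library also held 549.6 CPM of 8 DN3 marker genes, against 76.6 CPM in WT DN1 and 398 CPM in Vav-cre DN1, and the part of CD25+ cells in its Cox6b2 level was not tested.

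**Figure D3:**
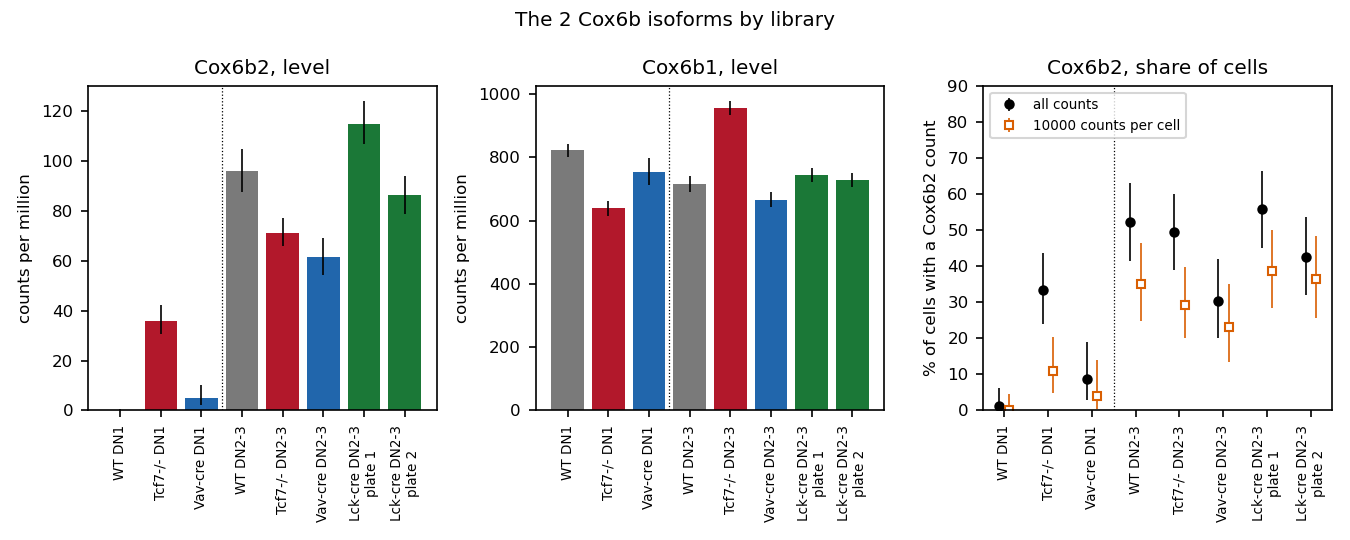
Level of Cox6b2 and of Cox6b1 in CPM (bars, with exact 95% Poisson intervals) and share of cells with a Cox6b2 count (points, with exact binomial intervals) in the 8 libraries, before and after thinning each cell to 10000 counts. Cox6b2 reaches 61.6 CPM or more in every DN2-3 library and at most 36.1 CPM in DN1.

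The widely expressed partner Cox6b1 showed no such step, at 822, 638, 753, 715, 955, 666, 744 and 728 CPM. Cox6b2 therefore supplied 0.0171%, 5.35%, 0.681%, 11.8%, 6.96%, 8.47%, 13.4% and 10.6% of the Cox6b counts. These shares depend on gene length and are read across libraries only. The balance of Cox7a2 and Cox7a2l differed in 1 library. Cox7a2, a subunit of complex IV (mm10 chromosome 9, 79755361 to 79759878), had 551, 429, 556, 539.6, 999, 695, 614 and 624 CPM. Its relative Cox7a2l (mm10 chromosome 17, 83501918 to 83517330) had 608, 489, 479, 564, 508, 649, 564 and 538 CPM. Cox7a2 made up 66.2% of the Cox7a counts in Tcf7-/- DN2-3 (exact interval 65.4% to 67%) and 46.6% to 53.5% in the other 7 libraries, 51.6% and 53.3% of them on the Lck-cre plates.

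The c-ring subunit of the ATP synthase is encoded by 3 genes that give the same mature protein. Atp5g1 supplied 42.6% to 46.3% of their counts in the DN1 libraries and Tcf7-/- DN2-3 and 48.2% to 57.4% in the other DN2-3 libraries. Atp5g3 supplied 28.5% to 30.7% in those first 4 libraries and 17.5% to 22.9% in the rest. Tcf7-/- DN2-3 thus had the balance of the DN1 libraries in this family, although its summed level did not. Muscle isoforms stayed near the limit: Cox7a1 had 20.5 CPM in WT DN2-3, from 6 of 88 cells, 11.8 and 8.05 CPM on the Lck-cre plates and 0 to 2.58 CPM elsewhere, and Cox6a2 reached at most 10.5 CPM, from 2 cells of Vav-cre DN2-3. Cox8b had 0 counts in every library, which allows at most 0.358 to 1.94 CPM at 3 counts. Outside these isoform families, Atp5sl also had 0 counts in every library. Its symbol was not found in the annotation used for gene positions, and no bound on its level is drawn.

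Promoters were read because many members of complexes III and V shared an order of libraries and the 2 Cox6b isoforms did not. RefSeq start sites on GRCm38.p6 were found for 70 of the 85 members, with 250 bases before and 50 after the start. Among those not matched were Atp5a1, Cox4i1, Cox4i2, Cox6a2, Cox6c, Cox8c, Ndufa2, Ndufa4l2, Ndufb9, Ndufs1, Sdhc, Uqcrb, Uqcrc2 and Uqcrq. The 100 bases before the start are shown for the Cox6b pair and for 4 members whose DN2-3 libraries all exceeded DN1, chosen because they hold a motif there, with the motif in capitals (the NRF1 motif in Atp5k and Atp5g2, the ETS motif CCGGAAG on either strand in the others).
Cox6b1 (chr7:30626115-30626214, minus strand): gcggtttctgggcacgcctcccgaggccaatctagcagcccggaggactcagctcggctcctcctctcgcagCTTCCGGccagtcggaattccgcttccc
Cox6b2 (chr7:4753095-4753194, minus strand): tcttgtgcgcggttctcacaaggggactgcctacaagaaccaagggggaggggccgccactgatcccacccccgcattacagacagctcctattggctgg
Atp5k (chr5:108434400-108434499, minus strand): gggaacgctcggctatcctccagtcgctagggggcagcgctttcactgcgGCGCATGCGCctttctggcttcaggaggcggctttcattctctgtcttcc
Atp5g2 (chr15:102671048-102671147, minus strand): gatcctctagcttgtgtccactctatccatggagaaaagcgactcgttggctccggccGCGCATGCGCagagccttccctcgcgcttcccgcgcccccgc
Atp5h (chr11:115419920-115420019, minus strand): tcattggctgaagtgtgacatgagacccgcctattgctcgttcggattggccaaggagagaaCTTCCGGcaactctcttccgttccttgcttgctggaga
Uqcr11 (chr10:80406822-80406921, minus strand): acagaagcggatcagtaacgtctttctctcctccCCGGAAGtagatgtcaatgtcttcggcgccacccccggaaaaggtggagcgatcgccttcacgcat
Cox6b1 holds the ETS motif 28 bases before its start, and none of the 7 motifs lies in the Cox6b2 window. The Cox6b1 window has 9 CpG pairs and the Cox6b2 window has 4.

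Both strands of the 300 bases were searched, and the share of all 27025 genes with a promoter in the table is given beside each count, followed by the 6447 measured genes that matched. The NRF1 motif, GCGCA followed directly by its reverse complement, was in 5 of 70 members (7.14%), 1.07% of all genes and 2.79% of measured genes. AAGATGGCG, bound by YY1, was in 8 members (11.4%), 1.64% of all and 4.54% of measured genes. CCGGAAG, the core bound by ETS factors such as GABPA, was in 16 members (22.9%), 9.93% of all and 24.1% of measured genes, so its share in members lay near that of measured genes. CACGTG, the E-box bound by MYC and USF, was in 7 members (10.0%), 8.09% of all and 12.5% of measured genes. TGACGTCA (CRE) was in 4 members (5.71%), 2.03% of all and 4.09% of measured genes, and TCAAGGTCA (ESRRA) in 2 (2.86%), 0.466% of all and 0.326% of measured genes. CTTTGAT, a core motif of TCF1 and LEF1, was in 1 member, Ndufa5 (1.43%), against 4.29% of all and 3.02% of measured genes. Of the 31 members whose DN2-3 libraries all lay above DN1, 25 had a matched promoter. Among these 25, CCGGAAG was in 6, and the NRF1 motif, AAGATGGCG and CACGTG were in 3 each. TGACGTCA, TCAAGGTCA and CTTTGAT were in 0 of them. A link between motif and order of libraries was not tested. A match describes letters in this window and is not a measured site.

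Cells with mitosis genes held more of these transcripts in all 5 DN2-3 libraries. DN2-3 cells with at least 4 of 20 mitosis genes at 2 or more counts numbered 8 of 88 in WT, 44 of 93 in Tcf7-/-, 8 of 76 in Vav-cre, and 21 of 91 and 14 of 87 on the Lck-cre plates. All-member sums in such cells over the others had ratios of 1.22, 1.13, 1.16, 1.39 and 1.16 in that order, above 1 in all 5 libraries. For complex V the ratios were 1.33, 1.16, 1.26, 1.57 and 1.13. Cells with mitosis genes were deeper, with medians of 69467 to 121931 counts against 41034.5 to 53372, and 16 to 33 cells per library held 2 to 5 of the genes, next to the limit. The share of such cells was 9.09% in WT, 47.3% in Tcf7-/-, 10.5% in Vav-cre, and 23.1% and 16.1% on Lck-cre plates 1 and 2. All-member sums over all cells were 33319, 45372, 35841, 37567 and 37965 CPM in the same order. The part of cells with mitosis genes in these levels was not tested.

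Without these cells the sums were 31693 CPM in WT, 42055 in Tcf7-/-, 34845 in Vav-cre and 32934 and 36136 on the Lck-cre plates. Tcf7-/- DN2-3 stayed the highest and its median log2 ratio to WT DN2-3 was again 0.39 (-0.11 for all genes), with 61 members higher against 42.8% of all genes. Lck-cre plate 1 moved most, and the 2 plates then lay further apart than with all cells. The median for Lck-cre was 0.11 without these cells.

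**Figure D4:**
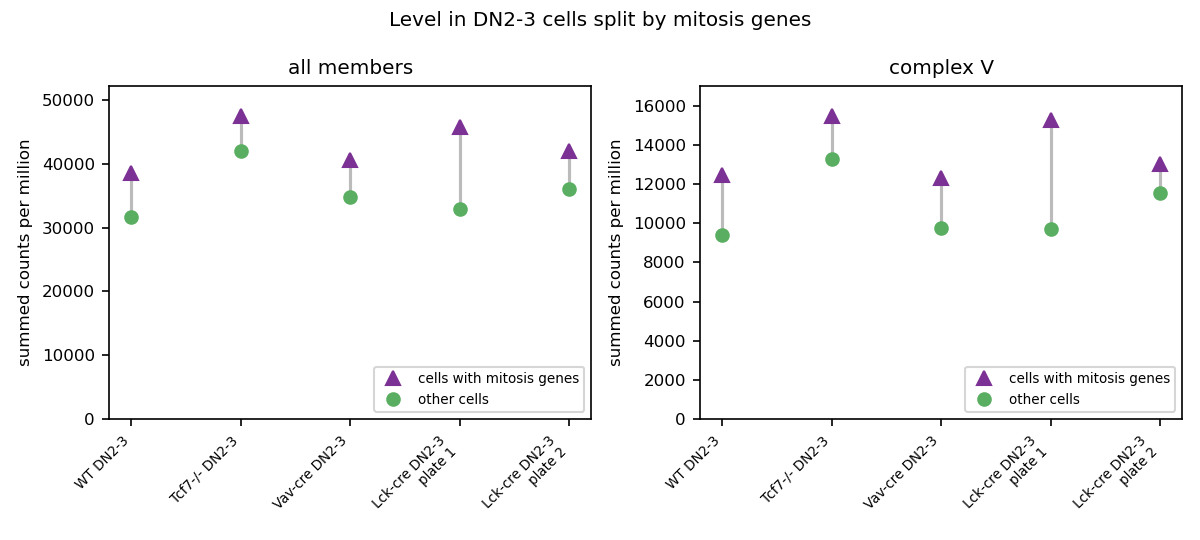
Summed level in CPM (vertical axes, from 0) of all members and of complex V in each DN2-3 library, for cells with mitosis genes (triangles) and the other cells (circles). The triangle lies above the circle in all 5 libraries, and the Tcf7-/- circle at 42055 CPM lies above the circles of the other 4.

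In DN1 the split by NK genes gave no common direction. All-member sums in cells with NK genes over the others had ratios of 0.785 in WT, 0.957 in Tcf7-/- and 1.07 in Vav-cre, and the WT value rests on 5 cells without NK genes. Depth moved with the level inside most libraries: over cells, Spearman's rho between log10 counts and the summed CPM was 0.31, -0.26, 0.09, 0.41, 0.35, 0.34, 0.18 and 0.40, over 58 to 96 cells that share a library. These values describe the cells and carry no test.

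Other gene lists of the mitochondrion and of growth were set beside the members, to be read against the 39.6% of all measured genes that were higher in this comparison. That share is not matched for level, and among genes of at least 200 CPM a larger share was higher, as given above. In Tcf7-/- DN2-3 against WT DN2-3, 63 of 74 measured mitochondrial ribosomal proteins were higher (median 0.30), with Mrps6 (1.15) and Mrps22 (0.91) highest and Mrpl45 (-0.33) lowest. Cytochrome c, the mitochondrial carriers and the outer-membrane channels formed 1 list, higher in 10 of 11 (median 0.32; Vdac3 lower at -0.28) and led by the ADP/ATP carrier Slc25a5, at 1646 against 1012 CPM, and by Cycs. Cytosolic ribosomal proteins were higher in 70 of 78 (0.27) and genes of the proteasome list in 32 of 38 (0.30). Enzymes of the citric acid cycle and its entry were higher in 10 of 18 (0.05), with Pdha1 (0.87) highest and Dlat (-0.75) lowest, both of the pyruvate dehydrogenase complex. Assembly factors were higher in 25 of 42 (0.16) and glycolytic genes in 11 of 17 (0.21). Regulators of nuclear mitochondrial genes were higher in 4 of 13 (-0.32), with Tfam, which packs mitochondrial DNA, at 102 against 60.5 CPM and Gabpb2 at 30.8 against 56.7 CPM. The member median of 0.39 stood above that of each of these 8 lists, the nearest being the carriers at 0.32, without matching for level. A single member's log2 level varied by 0.16 (SD) between the Lck-cre plates.

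**Figure D5:**
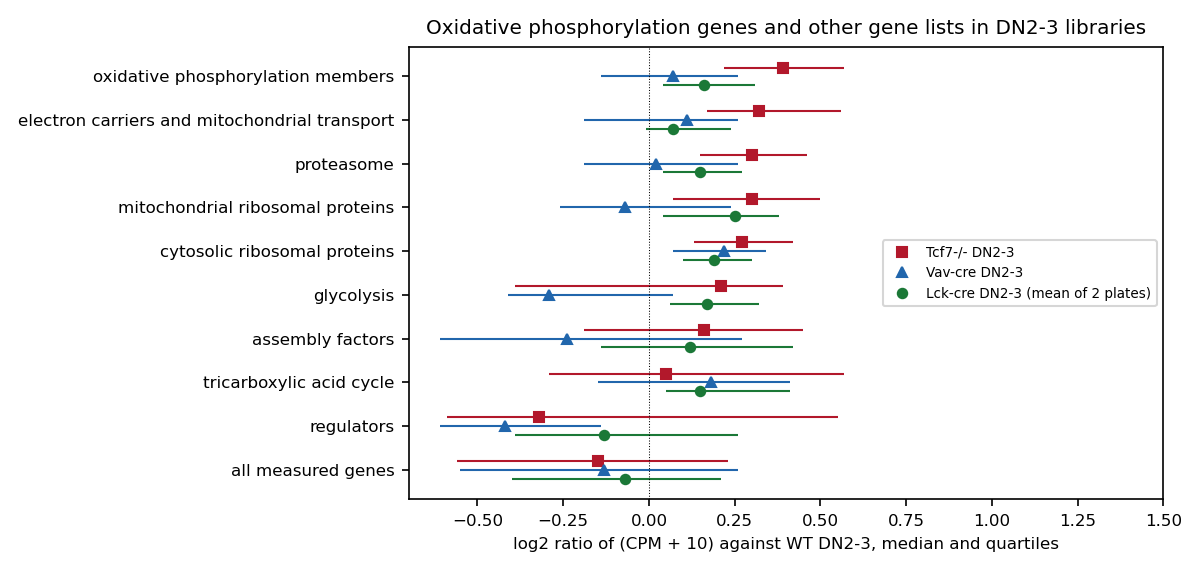
Median log2 ratio of (CPM + 10) against WT DN2-3 (horizontal axis, lines from the lower to the upper quartile) for the oxidative phosphorylation members, 8 other gene lists and all measured genes in Tcf7-/- DN2-3 (squares), Vav-cre DN2-3 (triangles) and Lck-cre DN2-3 (circles). The Tcf7-/- square of the members lies at 0.39 and that of all genes at -0.15.

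Between the WT gates, several genes of these lists differed widely. Atpif1, the inhibitor that holds back ATP hydrolysis by complex V, stood at 135, 229, 190.0, 638, 578, 326, 729.9 and 637 CPM, without overlap of the gates. Idh2, an isocitrate dehydrogenase of the mitochondrion, was at 408 CPM in WT DN2-3 against 48.9 CPM in WT DN1, Vdac1 of the outer membrane at 114 against 24.7 CPM and Ldhb, a lactate dehydrogenase, at 217 against 20.1 CPM. Pfkp, a phosphofructokinase, lay the other way at 14.3 against 96.4 CPM.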

How the data were processed

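Single cells were amplified with a modified STRT protocol, per the labels' protocols, aligned with TopHat2 2.1.1 to mm10 and counted with HTSeq, per the submitters' processing notes. In 1 file the authors deposited raw counts, in another log2 values of scaled counts, log2(TPM/10 + 1), which matched the counts to within 0.018% per cell and so carry no gene length. Whether molecular identifiers were collapsed is not given in the sources used here. HTSeq settings for reads shared with pseudogenes, common for these genes, are not given either.

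Entries with a date for a symbol (27 of 23154, 0.141% of counts) were dropped. Cells with at least 1000 genes were kept, and counts were summed per library, scaled to CPM and compared as log2 ratios with a pseudocount of 10 CPM (Python 3.11.15, numpy 2.4.6, pandas 2.3.3, and edgeR 4.0.16 for TMM factors only). Doublets were not called, as each well received 1 sorted cell. Intervals are 95%: Poisson for a level, conditional binomial for a ratio, Clopper-Pearson for a share. The calculation was tested on simulated data.

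The members and lists were chosen with earlier results of these data known. Named were the 8 highest and 8 lowest members with a mean of at least 50 CPM in each comparison (Lck-cre with 1 sign on both plates), the widest and narrowest of each complex, the isoforms and the catalytic core, as far as a value was of use. Of each other list the 2 highest and 2 lowest could be named. Atpif1, Idh2, Vdac1, Ldhb and Pfkp come from that rule for the WT gates. The proteasome list also takes Psmc3ip, which its symbol pattern matches. The values of 1 member are not reported here. Gzma was chosen after its values were seen. Comparisons with a shared WT library are not independent.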

Additional observations from a re-analysis of the deposited data

How the results depend on the processing

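The 8 medians over the members were recomputed under other scalings, cell filters, count filters and pseudocounts, and a value within 0.16 of the reported one (the SD of a member between the Lck-cre plates) was taken as unchanged. This held for 118 of 130 values of the medians, 427 of 624 of single named members and 78 of 88 of summed levels. The limit is the spread of a single member, while the median over members differed by 0.02 between the plates. A median near 0 can therefore change sign and still count as unchanged. Under TMM scaling that of Tcf7-/- DN1 against WT DN1 went from 0.03 to -0.06 in this way. A reversal was called only where the reported value itself exceeded 0.16 in size. Tcf7-/- DN2-3 had the highest summed level under every setting run, at 42055 to 58504 CPM. Between the WT gates the median reversed under TMM scaling (-0.0022) and without cells with NK genes (-0.01), which keeps 5 WT DN1 cells. With TMM scaling it moved to -0.23 for Vav-cre DN1, 0.63 for Tcf7-/- DN2-3 and 0.23 for Vav-cre DN2-3 against WT, and to 0.44 between the Vav-cre gates. From the means of the deposited log2 values it moved to 0.39 for Tcf7-/- DN1, -0.55 for Vav-cre DN1 and 0.81 for Tcf7-/- DN2-3 against WT, and to 0.75 and 0.86 between the gates of Tcf7-/- and Vav-cre. Without cells with NK genes it moved to -0.22 for Tcf7-/- DN1. Leaving out 1 Lck-cre plate gave 0.16 to 0.18. The causes were not tested.

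Single members reversed as follows. Under TMM scaling, Ndufb4 gave 0.07 and Ndufs1 0.04 in Tcf7-/- DN2-3. From the deposited log2 values, these gave 0.56 and 0.20, Ndufa3 in Lck-cre 0.04, Ndufa10 in Tcf7-/- DN1 0.04, and Ndufb4 and Ndufv1 between the Vav-cre gates 0.36 and 0.13. In cells of 30000 to 100000 counts, Ndufa3 in Lck-cre gave 0.06, Ndufs1 in Tcf7-/- DN2-3 0.05, Atp5c1 and Sdhc in Vav-cre DN1 -0.05 and 0.32, and Ndufv1 between the Vav-cre gates 1.25. Thinned cells gave -0.11 for Ndufa9 in Lck-cre. Without cells with NK genes, Ndufa10, Ndufa9, Ndufc2 and Sdhd in Tcf7-/- DN1 gave 1.72, 0.46, -0.90 and -0.52, Sdhc in Vav-cre DN1 0.29, and Cox6a1 and Ndufc2 between the WT gates 0.14 and -0.22. The depth band, the 2 settings that leave out cells with NK or mitosis genes and the limit of 200 CPM were chosen after seeing the data. No paired analysis was possible because each genotype and gate is 1 library (2 for Lck-cre DN2-3), the cell numbers are plate barcodes and no result comes from a test.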

Other observations

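Of the 85 members, 3 little-used isoform genes appeared almost only in Vav-cre DN1, the library with the fewest counts. Cox8c, known from testis, had 15 counts there, in 9 of 58 cells, and 0 in the other 7 libraries. Cox7b2 had 7 counts there in 6 cells and 1 count in Tcf7-/- DN1. Ndufa4l2, a hypoxia-responsive relative of Ndufa4, had 22 counts, all in 1 cell. Among 14279 genes with at least 3 counts, 160 (1.12%) had counts in Vav-cre DN1 only, against 58 to 203 genes for each of the other libraries.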
